A study of Homo sapiens with 36 samples.

Results

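The genes described here are NXN, which encodes nucleoredoxin, and 9 genes of the Wnt pathway in which Dishevelled acts: DVL1, DVL2, DVL3, CTNNBIP1, CTNNB1, AXIN1, AXIN2, LEF1 and TNFRSF19. They were taken from the array by gene symbol, and the set was chosen by the low signal of NXN in untreated U373cc3 cells against untreated U373neo, to which genes linked to Dishevelled and beta-catenin were added. Earlier results of these data were known when the set was drawn up. All 10 genes had a probe on the array, and 8 of them carried values, with 1 probe each, among 8741 genes with a symbol and values (13041 probes with values of 30968 probes in all). The probes of AXIN2 and LEF1 were blank on every array, so the transcripts of these genes were not analysed here.

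Wnt ligands bind Frizzled receptors and the co-receptors LRP5 and LRP6, and the signal is passed on by the Dishevelled proteins, which the genes DVL1, DVL2 and DVL3 encode. Dishevelled restrains the complex built on AXIN1 that marks beta-catenin (CTNNB1) for destruction, so that beta-catenin accumulates, enters the nucleus and acts with TCF/LEF factors such as LEF1. Nucleoredoxin is a relative of thioredoxin that binds Dishevelled and is known to hold it back in vertebrate cells, in a manner that depends on oxidation. CTNNBIP1 (also called ICAT) binds beta-catenin and blocks its contact with TCF factors, AXIN2 is a feedback inhibitor and a common read-out of the pathway, and TNFRSF19 (also called TROY) is a receptor of the TNF receptor family that has been studied in glioblastoma.

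RNA was profiled in clones of U373, an established glioblastoma cell line, on 36 single-colour (Cy5) oligonucleotide arrays. U373neo was the control clone and U373cc3 a clone with constitutive expression of CC3 (also called TIP30, the product of HTATIP2), and each was harvested untreated and 2 h after ultraviolet light (UV), at 20 J/m2 per the labels and 15 J/m2 per the methods. Each of the 4 groups had 3 biological replicates with 3 technical arrays per replicate, which is 9 arrays per group. With only 1 clone with CC3 and 1 without, effects of CC3 and of the clone cannot be told apart, and replicates show how cultures of a clone vary. The labels do not say what separated the 3 replicates, so the p-values measure the spread between these samples only. Levels below are linear probe intensities in arbitrary units as deposited, given as the mean ± SD of 3 replicates, where each replicate is the geometric mean of its 3 arrays. Intensities of different probes cannot be ranked against each other.

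The arrays of a treatment shared 1 distribution, with array medians of 894.93 to 896.01 on the untreated arrays and 746.27 to 748.14 on the UV arrays, and technical arrays of 1 replicate correlated at 0.977 to 0.997. The 1st percentile of the probe intensities lay between 90.85 and 92.32 on the untreated arrays and between 84.57 and 86.17 on the UV arrays, which serves here as a mark for dim signal because background values were not used here. The array had 1 probe for HTATIP2, and it was blank on every array, so these data hold no check of CC3 itself. Of 13 astrocyte and glioma markers looked up, 3 carried values (CHI3L1, EGFR and SOX9), while GFAP, S100B, SOX2, NES, OLIG2 and VIM were among the blank ones. Of the other marker lists, 8 of 10 neuron, 3 of 9 fibroblast, 0 of 8 epithelium, 1 of 9 leukocyte and 4 of 8 melanocyte genes carried values. The summed intensity of the fibroblast markers was 3389 to 3845 in U373neo and 1911.0 to 2103 in U373cc3, and that of the melanocyte markers 2416 to 2721 and 6785 to 6824. The higher melanocyte sum came from GPM6B (mean 234 against 3464) and TYRP1 (994 against 1998), while SOX10 read 1246 and 1185 and TYR, DCT, PMEL and MLANA were blank. The astrocyte and glioma sum was 3012 to 3367 in U373neo and 2599.6 to 2943 in U373cc3, and the neuron sum 14185 to 14850.1 and 15648 to 16244. All 4 sums thus moved with the clone without overlap in the untreated cells. In the astrocyte and neuron lists single genes went opposite ways. CHI3L1 (1959 against 1379) and EGFR (485.5 against 361) were lower in U373cc3, and SOX9 was higher (765 against 1003). SNAP25 (6050 against 5718) and SLC17A7 (2001 against 1632) were lower, and the other measured neuron genes were higher, among them TUBB3 (5050 against 6611). The astrocyte and neuron sums thus do not describe shifts of whole lists. The part of the markers in the differences between the clones was not tested.

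3 of the 8 measured genes, NXN, CTNNBIP1 and TNFRSF19, had a lower signal in U373cc3 than in U373neo with no overlap of replicates both without UV and after UV. Of all probes 22.6% were lower without overlap in the untreated comparison and 26.2% after UV. The share lower under both treatments was not counted. The genes were chosen with the untreated values known, so nothing is read from this count. The promoter windows of these 3 genes are shown as a description. Each window holds 300 bases of the RefSeq annotation on GRCh38.p14, from 250 bases before the start of the gene to 50 after it, 5′ to 3′ on the strand of the gene, and capitals mark matches to the EGR1 motif GCGNGGGCG on either strand.
NXN: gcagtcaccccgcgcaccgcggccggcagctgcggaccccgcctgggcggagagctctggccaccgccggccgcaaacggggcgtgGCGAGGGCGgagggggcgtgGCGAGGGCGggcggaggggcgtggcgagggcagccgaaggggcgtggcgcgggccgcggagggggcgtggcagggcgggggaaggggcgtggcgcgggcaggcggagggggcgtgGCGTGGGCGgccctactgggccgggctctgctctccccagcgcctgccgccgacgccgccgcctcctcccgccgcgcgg
CTNNBIP1: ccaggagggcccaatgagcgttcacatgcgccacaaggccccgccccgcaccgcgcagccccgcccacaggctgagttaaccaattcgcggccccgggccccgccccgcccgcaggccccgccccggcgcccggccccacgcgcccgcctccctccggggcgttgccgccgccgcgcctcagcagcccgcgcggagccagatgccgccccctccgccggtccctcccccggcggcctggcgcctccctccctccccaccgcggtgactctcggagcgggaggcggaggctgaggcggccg
TNFRSF19: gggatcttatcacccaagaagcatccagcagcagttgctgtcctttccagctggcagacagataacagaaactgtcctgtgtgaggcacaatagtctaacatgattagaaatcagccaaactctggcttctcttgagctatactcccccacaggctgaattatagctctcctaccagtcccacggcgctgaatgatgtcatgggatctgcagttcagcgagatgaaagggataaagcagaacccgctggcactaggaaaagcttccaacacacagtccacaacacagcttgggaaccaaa
The NXN window (chr17:979727-980026, minus strand) had a GC content of 83.3% and 47 CpG dinucleotides, and held 3 matches to the EGR1 motif. The run ggggcgtgg occurs 7 times along it as printed. The CTNNBIP1 window (chr1:9910220-9910519, minus strand) had a GC content of 80.7% with 42 CpG and no match. The TNFRSF19 window (chr13:23570162-23570461, plus strand) stood apart from both, with a GC content of 49.0% and 4 CpG, and had no match either. Over all 35116 promoters of the table the median GC content was 58.7% and the median number of CpG 14. The EGR1 motif lay in 9.43% of them, and windows of 2 other members held it as well, with 2 matches in DVL1 and 3 in AXIN1. A TCF/LEF core (CTTTGA, either strand), present in 12.9% of all promoters, and an AP-1 motif (TGANTCA), present in 7.71%, were found in none of the windows of the 8 measured members. These matches describe letters and not binding.

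NXN was the gene with the widest gap between the clones. In untreated U373neo the 3 replicates read 1859, 2032 and 1957, and in untreated U373cc3 they read 132, 140 and 157. The groups lay far apart, and no array of U373cc3, at 119 to 177, came near the lowest array of U373neo at 1651. After UV the U373neo replicates read 971, 1163 and 1047 and the U373cc3 replicates 128, 134 and 134. The means were 1949.6 ± 86.5 and 143 ± 12.9 without UV, a 13.7-fold lower signal in U373cc3 (log2 change -3.78, SE 0.08), and 1061 ± 96.5 and 132 ± 3.45 after UV, an 8.0-fold lower signal (log2 change -3.00, SE 0.08). Both values chose or followed the choice of the gene and are given with no test. Without UV NXN had the lowest fitted change of 12300 probes, and after UV it was in place 4 from the lowest of 12343.

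The signal of NXN in U373cc3 was dim. On the U373cc3 arrays the NXN probe stood at percentiles 4.22 to 12.3 of all probes without UV and 4.46 to 11.7 after UV. On the U373neo arrays it stood at percentiles 63.3 to 71.3 without UV and 54.7 to 61.0 after UV. In U373cc3 the probe was thus close to the 5th percentile of the arrays (124 to 125 without UV, 116 to 117 after UV), and whether it was above background there is not known from these values. How much of the fold depends on background was not tested. In the paper, quantitative RT-PCR also found less NXN RNA in U373cc3, but Western blots found the protein not diminished there. In a small cell lung carcinoma line with CC3 the paper found less NXN RNA too, and almost no protein. It also reports less of the protein in a neuroblastoma and a breast carcinoma line with CC3. Arrays came from 3 ranges of serial number, A, B and C, and within them the untreated log2 difference was -3.88, -4.06 and -3.40, with between 1 and 5 arrays of a clone in each. After UV only range A held both clones, and gave -2.98. The U373cc3 UV arrays of range A were all from replicate 3. Range A values after UV, here and below, thus rest on 1 culture of U373cc3.

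NXN read lower after UV in U373neo. On the jointly normalized scale untreated and UV arrays share 1 distribution, and UV changes assume that this makes them comparable. There the U373neo replicates read 1739, 1904 and 1833 without UV and 1056, 1255 and 1136 after UV, with no overlap. The difference was 1.59-fold (log2 change -0.67, SE 0.08). It is given with no test, because it uses the untreated U373neo cultures whose high signal was part of the choice of NXN. In U373cc3 the replicates read 132, 140 and 153 without UV and 128, 134 and 142 after UV, so the groups overlapped (log2 change -0.07, SE 0.08, no test). The UV changes of the clones differed by 0.60 on the log2 scale (SE 0.12), given with no test, and in U373cc3 the starting signal was already dim. Within range A the change was -0.64 in U373neo, and in U373cc3 it was 0.12 in range A and -0.15 in range B.

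**Figure D1:**
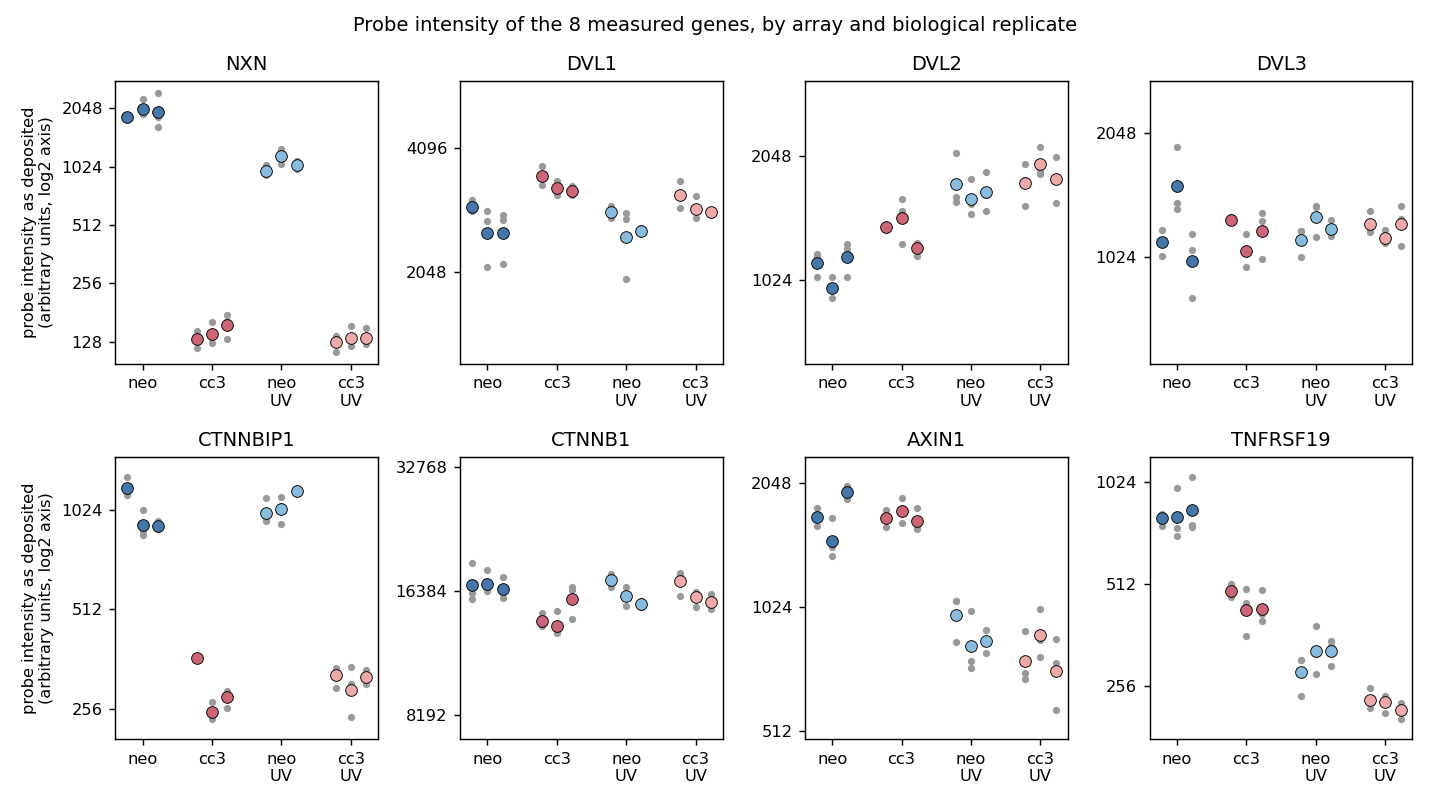
Probe intensity as deposited (vertical axis, log2 scale, arbitrary units) of the 8 measured genes in the 4 groups, where grey points are single arrays and large coloured points the 3 biological replicates, whose vertical position is the geometric mean of 3 arrays. Without UV the replicates of NXN read 1859 to 2032 in U373neo and 132 to 157 in U373cc3, and CTNNBIP1 and TNFRSF19 were also lower in U373cc3 under both treatments. Untreated and UV arrays were scaled apart.

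CTNNBIP1, the inhibitor of beta-catenin and TCF contact, also had a wide gap between the clones. The U373neo replicates read 1189, 918 and 913 without UV, and the U373cc3 replicates 366, 251 and 278. After UV they read 999, 1027 and 1163 in U373neo and 324, 294 and 319 in U373cc3. All U373cc3 replicates thus lay below all U373neo replicates under both treatments. On the U373cc3 arrays the probe stood at percentiles 19.4 to 29.5 without UV and 23.1 to 31.8 after UV. The difference was 3.39-fold without UV (log2 change -1.76, SE 0.14, no test), in place 20 from the lowest of 12300 probes, and 3.40-fold after UV (log2 change -1.77, SE 0.14, adjusted p = 2.27e-06), in place 28 of 12343. The cultures after UV were not part of the comparison that chose the gene, but the clones are the same. In the ranges of serial number the untreated difference was -1.42, -1.88 and -2.05, and after UV range A gave -1.73.

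The UV changes of CTNNBIP1 did not pass the test in either clone. They were 0.32 on the log2 scale in U373neo (SE 0.14, adjusted p = 0.0677) and 0.27 in U373cc3 (SE 0.14, adjusted p = 0.114), and their difference was -0.05 (SE 0.19, adjusted p = 0.906). Single replicates moved this across the threshold. Without U373neo replicate 1, the highest of its group, the change was 0.44 with an adjusted p of 0.0157, and without U373cc3 replicate 1, which leaves the change itself as it was, the adjusted p was 0.0294. In U373cc3 leaving out untreated replicate 1 gave 0.42 with an adjusted p of 0.0159. All of these tests use the untreated cultures, whose values were known when the gene was picked. Their p-values are to be read with that limit.

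The Dishevelled genes, whose proteins nucleoredoxin binds, differed between the clones by up to 0.32 on the log2 scale. DVL1 read 2952, 2548 and 2547 in untreated U373neo and 3509.7, 3276 and 3223 in untreated U373cc3, without overlap (log2 change 0.32, SE 0.08, no test). After UV it read 2866, 2490.4 and 2576 in U373neo and 3159, 2921 and 2867 in U373cc3, where the groups almost touched and the difference did not pass the test (log2 change 0.18, SE 0.08, adjusted p = 0.12). DVL2 read 1131, 980.4 and 1168 in untreated U373neo and 1376, 1450.3 and 1228 in untreated U373cc3, also without overlap (log2 change 0.31, SE 0.09, no test). After UV its difference was 0.13 (SE 0.09, adjusted p = 0.267). DVL3 overlapped between the clones under both treatments, with log2 changes of -0.04 without UV (SE 0.13, no test) and 0.00 after UV (SE 0.13, adjusted p = 0.998). The untreated difference within the ranges of serial number was 0.39, 0.59 and 0.16 for DVL1, 0.41, 0.31 and 0.16 for DVL2, and -0.16, 0.52 and -0.14 for DVL3.

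DVL2 rose after UV in both clones. On the jointly normalized scale its replicates read 1047, 905 and 1083 without UV and 1879, 1734 and 1797 after UV in U373neo, and 1284, 1352 and 1139.98 without UV and 1891, 2096 and 1929.6 after UV in U373cc3. All UV replicates lay above all untreated replicates. The rise was 1.79-fold in U373neo (log2 change 0.84, SE 0.09, adjusted p = 8.81e-06) and 1.57-fold in U373cc3 (log2 change 0.65, SE 0.09, adjusted p = 8.48e-05), and the difference between the clones in it did not pass the test (-0.19, SE 0.12, adjusted p = 0.377). Within ranges the rise was 0.86 in U373neo (range A) and 0.53 and 0.73 in U373cc3 (ranges A and B). DVL1 changed by 0.14 in U373neo (SE 0.08, adjusted p = 0.161) and by -0.02 in U373cc3 (SE 0.08, adjusted p = 0.829), and DVL3 by 0.23 (SE 0.13, adjusted p = 0.165) and 0.26 (SE 0.13, adjusted p = 0.111).

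The values of DVL3 turned on 1 culture. Its untreated U373neo replicates read 1113, 1521 and 1004, with replicate 2 above all others of the gene. Without that replicate the UV change of DVL3 in U373neo was 0.41 with an adjusted p of 0.00428, and that in U373cc3, 0.26 as before, had an adjusted p of 0.0229. For DVL1, leaving out U373neo replicate 1 gave a UV change of 0.22 in U373neo with an adjusted p of 0.0375.

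CTNNB1, the gene of beta-catenin, had a bright probe, at percentiles 93.2 to 95.9 of the arrays in all groups. It read 16968, 17090.2 and 16534 in untreated U373neo and 13857, 13519 and 15718 in untreated U373cc3, without overlap and 1.18-fold lower (log2 change -0.23, SE 0.08, no test). After UV the means were 16179.6 ± 1095 in U373neo and 16196 ± 972 in U373cc3 and the groups overlapped (log2 change 0.00, SE 0.08, adjusted p = 0.99). The UV change was -0.17 in U373neo (SE 0.08, adjusted p = 0.0911) and 0.07 in U373cc3 (SE 0.08, adjusted p = 0.436), with a difference of 0.24 (SE 0.11, adjusted p = 0.21). Its direction in U373neo depended on the scaling: with each array centred on its median, which moves all UV changes up, it was 0.18 (adjusted p = 0.0653), and in U373cc3 0.41 (adjusted p = 0.000796). Without U373neo UV replicate 1 the change in U373neo was -0.22 (adjusted p = 0.0489).

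AXIN1, the scaffold of the complex that marks beta-catenin for destruction, fell after UV in both clones, and its replicates overlapped between them. Its untreated replicates read 1695, 1482 and 1940.4 in U373neo and 1685, 1745 and 1652 in U373cc3, so that those of U373cc3 lay inside the range of U373neo (log2 change -0.00, SE 0.11, no test). After UV the difference was -0.17 (SE 0.11, adjusted p = 0.245). On the joint scale the U373neo replicates read 1581, 1382 and 1817 without UV and 1064, 895 and 922 after UV, a 1.65-fold fall (log2 change -0.73, SE 0.11, adjusted p = 0.000132). The U373cc3 replicates read 1574, 1631 and 1542 without UV and 825, 952 and 783 after UV, a 1.86-fold fall (log2 change -0.90, SE 0.11, adjusted p = 3.81e-05). The groups did not overlap in either clone, and the difference of the falls did not pass the test (-0.17, SE 0.15, adjusted p = 0.519). Within ranges the fall was -0.68 in U373neo (range A) and -1.0 and -0.88 in U373cc3 (ranges A and B).

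TNFRSF19, the receptor of the TNF receptor family, was lower in U373cc3 than in U373neo and lower after UV in both clones. Its untreated replicates read 800.0, 804 and 847 in U373neo and 487, 430.5 and 433 in U373cc3, a 1.82-fold difference (log2 change -0.86, SE 0.08, no test). After UV they read 282, 324 and 325 in U373neo and 234, 229 and 218 in U373cc3, again without overlap (1.36-fold, log2 change -0.45, SE 0.08, adjusted p = 0.000712). On the UV arrays the probe stood at percentiles 22.9 to 34.7 in U373neo and 19.0 to 24.3 in U373cc3, toward the dim end. The part of dim signal in the sizes of these differences was not tested. The UV fall was 2.25-fold in U373neo (log2 change -1.17, SE 0.08) and 1.74-fold in U373cc3 (log2 change -0.80, SE 0.08), and the clones differed in it by 0.37 on the log2 scale (SE 0.11). These UV values carry no test, since the study itself lists the gene for its UV change. The test between the clones after UV used the same UV cultures, in clones already known to differ in this gene. It is not independent support for the difference. Within ranges the untreated difference of the clones was -0.80, -1.21 and -0.94, and after UV -0.50 in range A.

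**Figure D2:**
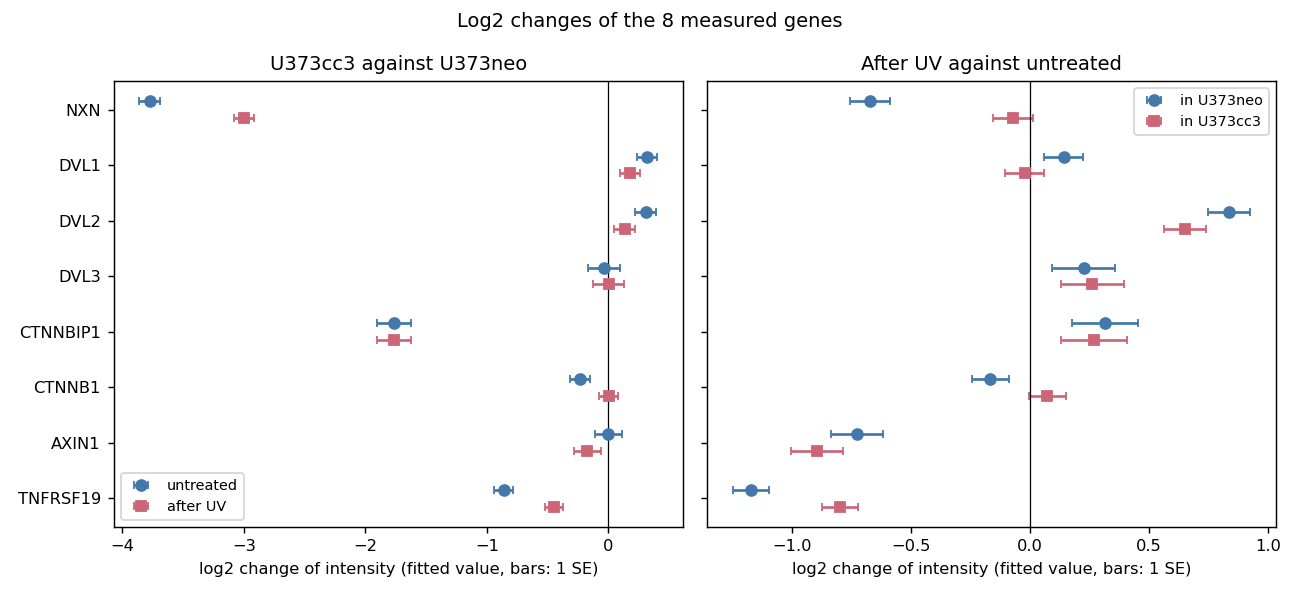
Fitted log2 changes (horizontal axis) of the 8 measured genes (vertical axis) between the clones (left) and after UV (right); points are the fitted values over 3 replicates a group and bars 1 SE. NXN (-3.78 and -3.00) and CTNNBIP1 (-1.76 and -1.77) lie far to the left in the comparison of the clones, while DVL2 (0.84 and 0.65) lies to the right and AXIN1 (-0.73 and -0.90) to the left after UV in both clones.

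Few of the measured genes passed a test, and these shares were read against all probes. Between the clones after UV 2 of 7 tested genes passed, both lower in U373cc3, where 38.0% of all probes passed and 19.8% were lower. Both were already known to be lower in the untreated clones, so this count is not independent support. After UV 2 of 6 passed in U373neo, where 59.5% of all probes passed, and 2 of 6 in U373cc3, where 57.7% passed. In the difference of the UV changes 0 of 6 passed with limma, none with an unadjusted p under 0.05 and none under the 20 alternatives tried, where 6.17% of all probes passed. Of the 8 genes 6 did not overlap between the untreated clones, where 38.2% of all probes passed and 49.4% did not overlap, and nothing is read from this count because the genes were chosen with that comparison known.

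The genes around each member on its chromosome were set beside it. NXN lies on chromosome 17 near its end, with 26 measured genes within 20 places on either side. Their median log2 change between the clones was 0.12 without UV, with 2 lower and 9 higher past the test, and -0.06 after UV, with 7 lower and 3 higher. The lowest of them was at -0.48 without UV and -0.56 after UV, so that no neighbour came near NXN. The closest measured genes were GLOD4 and MRM3 on one side (log2 changes 0.18 and 0.46 without UV) and TIMM22 and ABR on the other (0.25 and 0.48). CTNNBIP1 on chromosome 1 had 40 such neighbours with medians of -0.07 and -0.04, and the lowest at -0.70 and -0.95. Of these 11 were lower and 3 higher past the test without UV, and 10 and 6 after UV. The adjacent CLSTN1 was at -0.70 and -0.56, and LZIC on the other side at 0.17 and 0.11. For TNFRSF19 on chromosome 13, of its 32 neighbours 30 were lower without UV and 28 after UV, and none higher, with medians of -0.82 and -0.79, beside which TNFRSF19 itself was at -0.86 and -0.45.

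**Figure D3:**
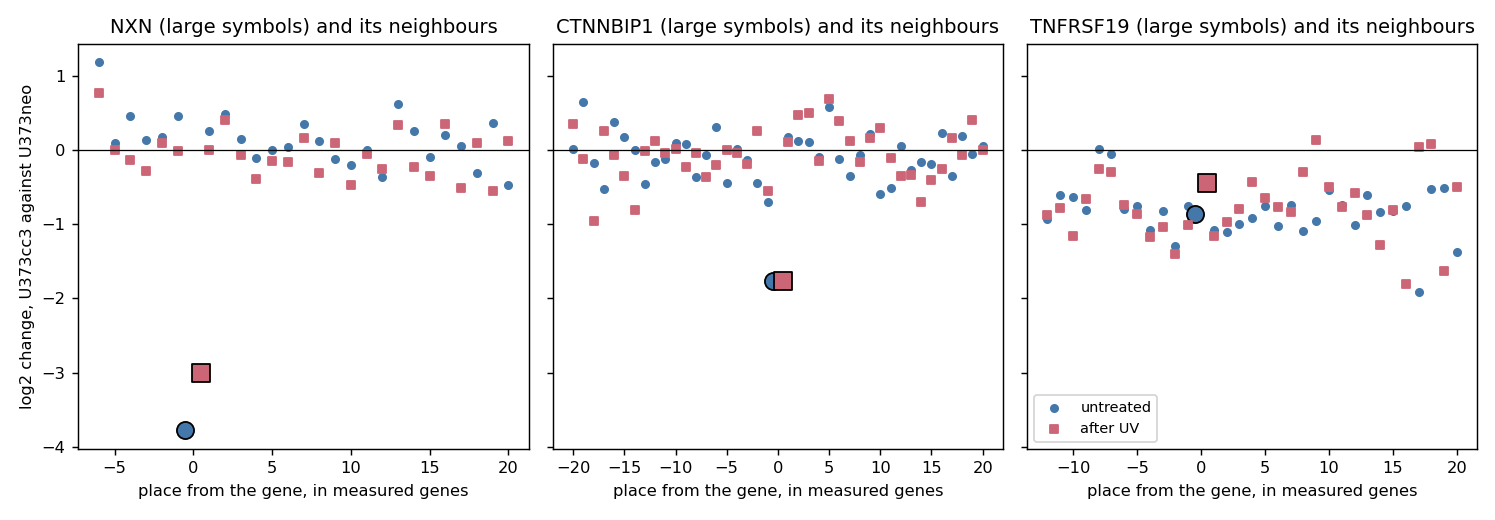
Log2 change between U373cc3 and U373neo (vertical axis) of NXN, CTNNBIP1 and TNFRSF19 (large symbols, set apart sideways to show both) and of up to 20 measured genes on either side, in their order on the chromosome (horizontal axis, places from the gene). NXN and CTNNBIP1 lie below all their neighbours, while TNFRSF19 lies among neighbours whose medians are -0.82 without UV and -0.79 after UV.

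The genes whose signal ran most like that of NXN over the 12 replicates, among 11601 other probes, were CDKAL1 (Pearson r = 0.9966, Spearman rho = 0.86), API5 (0.995, 0.86), TM9SF2 (0.9941, 0.867), TTC9C (0.9931, 0.811) and ALK (0.9926, 0.846). The points share their arrays and fall into the 2 clones, so that r measures mainly the step between them. The step differed in size: ALK was lower in U373cc3 by -3.03 on the log2 scale without UV and CDKAL1 by -2.40, against -3.78 for NXN, while API5, TM9SF2 and TTC9C were lower by -0.81, -0.94 and -1.24. The UV changes of ALK were -0.15 in U373neo and 0.01 in U373cc3, and those of CDKAL1 -0.44 and -0.17. The ALK probe was itself dim in U373cc3, with a mean of 109.9 on the joint scale against 142 for NXN, so its difference, like that of NXN, is set against a signal at the dim end of the arrays. These 5 genes lie on chromosomes 2, 6, 11 and 13, none on chromosome 17 with NXN.

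The other genes of the pathway were taken from 9 lists arranged by role. Between the untreated clones 42 of 113 measured genes passed the test (37.2%, against 40.0% of all 8425 genes) and after UV 34 of 102 (33.3%, against 41.1%). The lists as a whole thus held no larger share of changed genes than the array. Of all genes 22.0% were higher and 18% lower in untreated U373cc3, and 19.5% and 21.6% after UV. Among ligands and their secretion, 4 of 21 listed genes were measured and all 4 were higher in untreated U373cc3, with WNT10B, a secreted Wnt ligand, at 318 ± 32.8 in U373neo and 481 ± 54.8 in U373cc3 (log2 change 0.59, SE 0.10, adjusted p = 0.000759) and PORCN, which acylates Wnt proteins so that they can be secreted, at 0.38 (adjusted p = 0.0119). After UV only WNT10B of the 4 passed (log2 change 0.32, adjusted p = 0.0271), and the call was lost without U373neo UV replicate 1 or 2 or U373cc3 UV replicate 1 or 3 (adjusted p up to 0.0943). Of the secreted antagonists and agonists 4 of 17 were measured. DKK3, a secreted member of the Dickkopf family, read 2182 ± 161 in U373neo and 1102 ± 62.0 in U373cc3 without UV (log2 change -0.98, SE 0.08, adjusted p = 3.76e-06) and was also lower after UV (-0.53, adjusted p = 0.000388). NOTUM, an enzyme that removes the lipid from Wnt proteins, read 131 ± 4.23 and 212 ± 14.1 without UV (log2 change 0.69, adjusted p = 7.03e-05), both close to the dim end of the arrays, and was higher after UV as well (0.46, adjusted p = 0.00119).

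Of the Frizzled receptors and co-receptors 12 were measured without UV, with 2 higher in U373cc3, 2 lower and 8 not past the test. FZD1 and FZD5 were higher (log2 changes 0.64, adjusted p = 0.000522, and 0.54, adjusted p = 0.00151), LRP5 and FZD7 lower (-0.51, adjusted p = 0.00234, and -0.41, adjusted p = 0.0096). After UV 1 of 10 passed, FZD7, at 1177 ± 76.3 in U373neo and 700.5 ± 22.3 in U373cc3 (log2 change -0.75, adjusted p = 0.000174). Among 20 measured partners and regulators of Dishevelled 3 were higher and 4 lower in untreated U373cc3. DIXDC1, a protein with the DIX domain that Dishevelled also carries, was higher (340 ± 53.3 against 614 ± 46.3, log2 change 0.86, adjusted p = 0.000273), as was the casein kinase gene CSNK1D (0.43, adjusted p = 0.0109). CELSR2, a cadherin of planar cell polarity, was lower (1144 ± 153 against 525 ± 8.13, log2 change -1.12, adjusted p = 2.95e-05), as was PRICKLE1, which binds Dishevelled in the same branch (-0.94, adjusted p = 0.0107). After UV 4 of 17 were higher and 2 lower. DIXDC1 (1.16, adjusted p = 2.92e-05) and CSNK1D (0.44, adjusted p = 0.00932) were higher, and the lower ones were CELSR2 (-0.67, adjusted p = 0.00113) and FRAT2, which binds GSK3 (-0.78, adjusted p = 5.14e-06).

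Of the destruction complex 16 genes were measured without UV, with 2 higher in U373cc3 and 1 lower. APC2, a relative of APC, was higher (log2 change 0.75, adjusted p = 0.00167), as was PPP2CA, the catalytic subunit of protein phosphatase 2A (0.36, adjusted p = 0.00097), and CUL1, the scaffold of the SCF ubiquitin ligases, was lower (-0.34, adjusted p = 0.0193), a call lost without U373neo replicate 1 or 2 or U373cc3 replicate 2 (adjusted p up to 0.0741). After UV 6 of 14 were higher, among them APC itself (0.67, adjusted p = 0.00519) and APC2 (0.50, adjusted p = 0.0167), and 1 was lower, RNF146, a ubiquitin ligase that acts on axin (-0.35, adjusted p = 0.0169). The call of APC2 was lost without U373neo UV replicate 1 or U373cc3 UV replicate 2 (adjusted p up to 0.0632), and that of RNF146 without U373neo UV replicate 2 or U373cc3 UV replicate 3 (adjusted p up to 0.07). Of 15 measured TCF factors and nuclear partners 5 were higher and 2 lower without UV, and of 14 after UV 3 and 2. TLE1, a corepressor that binds TCF factors, read 575 ± 120.5 in U373neo and 1171 ± 215 in U373cc3 without UV (log2 change 1.03, adjusted p = 0.000191), and after UV it was higher by 1.12 (adjusted p = 9.35e-05). BCL9L, a coactivator that binds beta-catenin, was lower under both treatments (-0.72, adjusted p = 0.000173, and -0.77, adjusted p = 9.58e-05). HBP1, a repressor, was higher (0.43, adjusted p = 0.00454, and 0.31, adjusted p = 0.0233), after UV with a call lost without U373neo UV replicate 1 or U373cc3 UV replicate 1 or 2 (adjusted p up to 0.0906). TLE5, a short relative of TLE1, was lower (-0.38, adjusted p = 0.0156, and -0.39, adjusted p = 0.012). Its call was lost without U373cc3 replicate 2 or 3 in the untreated comparison (adjusted p up to 0.0645) and without U373neo UV replicate 2 after UV (adjusted p = 0.051).

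The target genes of the pathway split evenly in the untreated clones, with 5 of 16 measured genes higher in U373cc3 and 5 lower, and 1 of 13 higher and 2 lower after UV. JUN, a subunit of AP-1 that many other signals also drive, was higher (14317 ± 1053 against 24791 ± 1923 without UV, log2 change 0.79, adjusted p = 3.76e-05, and 0.50 after UV, adjusted p = 0.000943), and so was BAMBI, a decoy receptor of TGF-beta signalling, without UV (0.68, adjusted p = 0.00104). TWIST1, a factor of mesenchymal cells, was lower under both treatments (-0.52, adjusted p = 0.000207, and -0.65, adjusted p = 3.41e-05) and ENC1, an actin-binding protein, after UV (-0.63, adjusted p = 0.000188). TIAM1, an activator of RAC1, was lower without UV (-0.47, adjusted p = 0.0311), a call lost without U373neo replicate 1 or U373cc3 replicate 2 or 3 (adjusted p up to 0.116). A further list held thioredoxin-fold proteins, the family to which nucleoredoxin belongs, and proteins that act on or with them. Of its 21 measured genes 3 were higher and 2 lower without UV, and 1 and 6 after UV. PRDX5, a peroxiredoxin, read 11171 ± 765 in U373neo and 5914 ± 1049.8 in U373cc3 without UV (log2 change -0.93, adjusted p = 0.000187) and was lower by -0.97 after UV (adjusted p = 0.000129). TXNDC5 was lower without UV (-0.42, adjusted p = 0.00255) and TXNDC17 after UV (-0.47, adjusted p = 0.00698). The higher ones were smaller in size. SRXN1, the gene of sulfiredoxin, was at 0.27 without UV (adjusted p = 0.0135, lost without U373cc3 replicate 2 at 0.0512) and TXNL4B at 0.28 (adjusted p = 0.0445, lost without any 1 of 8 of the 12 replicates, up to 0.156). TXNRD1, the cytosolic thioredoxin reductase, was at 0.22 after UV (adjusted p = 0.0386, lost without any 1 of 7 replicates, up to 0.121). Of 5 other proteins reported to bind nucleoredoxin none passed without UV, and 2 were higher after UV, among them PFKP, a subunit of phosphofructokinase (0.38, adjusted p = 0.00252). The other was PFKM (0.22, adjusted p = 0.0253), another phosphofructokinase subunit, whose call was lost without any 1 of 5 of the 6 UV replicates (adjusted p up to 0.0843).

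After UV 57 of 101 genes of the lists passed the test in U373neo (56.4%, against 62.3% of all 7986 genes), 26 higher and 31 lower, and 57 of 101 in U373cc3 (56.4%, against 58.0%), 24 higher and 33 lower. Of all genes 32.2% were higher and 30.1% lower after UV in U373neo, and 27.9% and 30.0% in U373cc3. In the destruction complex, to which AXIN1 belongs, 9 of 14 genes were lower in each clone and 2 and 1 higher. The medians were -0.50 in U373neo and -0.39 in U373cc3, beside 0.04 and 0.02 over all genes. Over all genes of 100 kb or more the medians were -0.42 and -0.22, and the part of gene length in this list was not tested. CUL1 fell in both clones (-0.89, adjusted p = 1.63e-05, and -0.69, adjusted p = 0.000166), APC in U373neo (-0.91, adjusted p = 0.000282) and AMER1, which binds APC at the membrane, in U373cc3 (-0.70, adjusted p = 0.000437). SKP1, the adaptor of the SCF ligases, rose in both (0.31, adjusted p = 0.00638, and 0.24, adjusted p = 0.0254), in U373cc3 with a call lost without U373cc3 replicate 2 or 3 or U373cc3 UV replicate 1 or 3 (adjusted p up to 0.0834). RNF146 rose in U373neo (0.46, adjusted p = 0.00192). Of the Dishevelled partners 8 of 17 fell and 0 rose in U373neo, where CCDC88C, a binding partner of Dishevelled, fell by 1.32 on the log2 scale (adjusted p = 1.4e-05) and PRICKLE1 by 1.01 (adjusted p = 0.00446). In U373cc3 7 fell and 2 rose, among them CXXC5, an inhibitor of Dishevelled, by -1.28 (adjusted p = 1.17e-05), KLHL12, an adaptor of Dishevelled ubiquitination, by -0.93 (adjusted p = 0.000135) and CELSR2 by 0.56 (adjusted p = 0.00215). ARRB1, an arrestin that binds Dishevelled, also rose there (0.32, adjusted p = 0.018), a call lost without U373cc3 replicate 1 or 3 or U373cc3 UV replicate 3 (adjusted p up to 0.0756).

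Of 14 TCF factors and nuclear partners 4 rose and 5 fell in U373neo, and 1 rose and 5 fell in U373cc3. The falls were widest for the coactivator CREBBP (9523 ± 459.9 without UV and 3852 ± 163 after UV in U373neo as deposited, log2 change on the joint scale -1.28, adjusted p = 9.98e-08, and -1.11 in U373cc3, adjusted p = 3.89e-07) and for TLE1 (-1.0, adjusted p = 0.000109, and -0.88, adjusted p = 0.000375), while CBY1, which binds beta-catenin and counters it, rose (0.69, adjusted p = 1.4e-05, and 0.38, adjusted p = 0.00147), as did RUVBL2 in U373neo (0.42, adjusted p = 0.00564). The target genes MYC (-1.26, adjusted p = 1.47e-05, and -1.23, adjusted p = 2.43e-05) and EPHB2 (-1.20, adjusted p = 1.07e-06, and -0.88, adjusted p = 1.76e-05) fell in both clones, and BAMBI (0.97, adjusted p = 2.9e-05, and 0.51, adjusted p = 0.00375) and S100A4 (0.63, adjusted p = 1.48e-05, and 0.60, adjusted p = 3.02e-05) rose. Among the thioredoxin-fold proteins and those that act with them 10 of 21 rose in each clone, and 2 fell in U373neo and 3 in U373cc3. TXNL4B rose in U373neo (0.91, adjusted p = 1.01e-05) and PRDX5 in U373cc3 (0.66, adjusted p = 0.00136), while TXNRD1 fell in both (-0.78, adjusted p = 5.69e-06, and -0.61, adjusted p = 5.19e-05). TXNDC17 rose in U373neo (0.62, adjusted p = 0.000664) and GLRX, a glutaredoxin, in U373cc3 (0.93, adjusted p = 0.00412). TXNL1 fell in U373neo (-0.20, adjusted p = 0.0219), a call lost without U373neo replicate 1 or 2 or U373neo UV replicate 1 (adjusted p up to 0.0963). TXNIP, which binds thioredoxin, fell in U373cc3 (-0.28, adjusted p = 0.0286), a call lost without U373cc3 replicate 1 or U373cc3 UV replicate 1 or 2 (adjusted p up to 0.113). PORCN (0.76, adjusted p = 5.32e-05, and 0.57, adjusted p = 0.000581) and RSPO2, a secreted enhancer of Wnt signals (0.54, adjusted p = 0.000266, and 0.44, adjusted p = 0.00147), rose in both, as did WNT10B in U373neo (0.59, adjusted p = 0.00034) and WNT10A in U373cc3 (0.41, adjusted p = 0.000711). The receptor RYK fell in U373neo (-0.88, adjusted p = 5.45e-06), and FZD5 and FZD1 fell in U373cc3 (-0.86, adjusted p = 2.51e-05, and -0.84, adjusted p = 4.57e-05). KREMEN2, a receptor of Dickkopf proteins, rose in U373neo (0.29, adjusted p = 0.0282), a call lost without U373neo replicate 3 or U373neo UV replicate 1 or 3 (adjusted p up to 0.121). ZNRF3, a ubiquitin ligase that removes Frizzled receptors, rose in U373cc3 (0.72, adjusted p = 0.0261), a call lost without U373cc3 replicate 1 or 3 or U373cc3 UV replicate 1 or 3 (adjusted p up to 0.0855).

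Of the proteins reported to bind nucleoredoxin, PFKL, a subunit of phosphofructokinase, rose in both clones (0.52, adjusted p = 0.000507, and 0.41, adjusted p = 0.00338), and so did FLII, an actin-binding protein (0.66, adjusted p = 0.00464, and 0.49, adjusted p = 0.0254). In U373cc3 the call of FLII was lost without any 1 of 5 of its 6 replicates (adjusted p up to 0.0853). PFKP fell in U373neo (-0.31, adjusted p = 0.00556), but with each array centred on its median its change was 0.0893.

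In the difference of the UV changes 5 of 101 genes of the lists passed (4.95%, against 6.52% of all genes), DKK3, FZD5, FZD1, FRAT2 and SRXN1. On the joint scale FZD1 read 2553 ± 173 without UV and 2289 ± 74.4 after UV in U373neo, and 4094 ± 472 and 2285 ± 276 in U373cc3, so that the clones met after UV. FZD5 read 301 ± 22.9 and 276 ± 28.3 in U373neo and 434 ± 33.8 and 239.8 ± 19.1 in U373cc3, a fall in U373cc3 only by the test of each clone and a difference of -0.73 between them (SE 0.14, adjusted p = 0.017). For FZD1 the difference was -0.69 (SE 0.15, adjusted p = 0.0247). The direction was opposite for DKK3, which fell in U373neo (-0.36, adjusted p = 0.0026) and read 0.13 in U373cc3 (adjusted p = 0.201), a difference of 0.49 (SE 0.12, adjusted p = 0.0341). FRAT2 differed by -0.50 (SE 0.10, adjusted p = 0.0176) and SRXN1 by -0.60 (SE 0.10, adjusted p = 0.0117). The calls of FZD5 and SRXN1 held without each replicate in turn. That of FRAT2 was lost without U373neo UV replicate 2 (adjusted p = 0.0531), that of FZD1 without any 1 of 4 replicates (up to 0.0656) and that of DKK3 without any 1 of 7 (up to 0.0879).

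**Figure D4:**
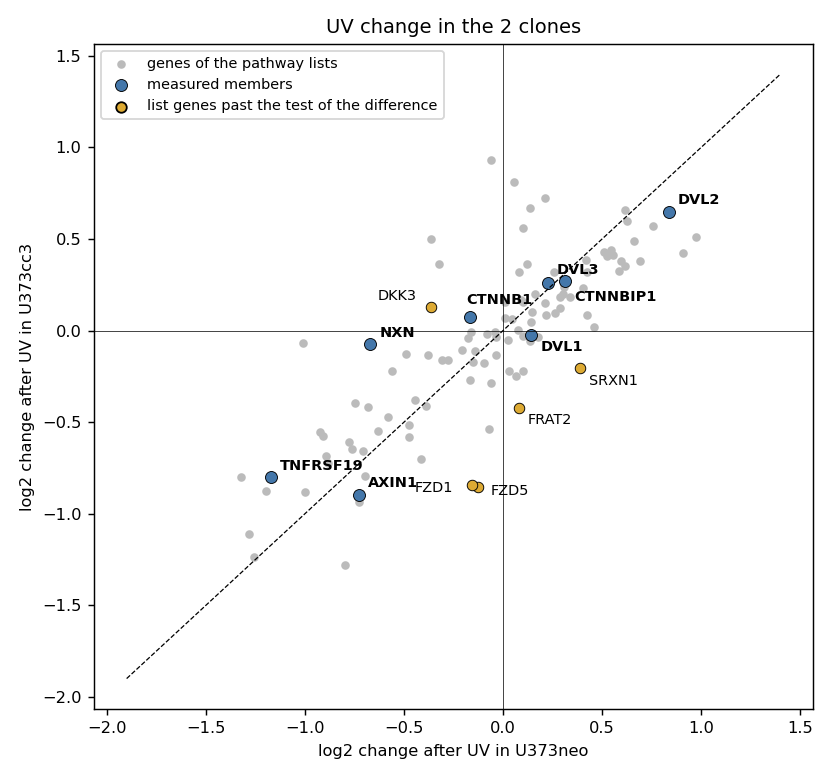
Log2 change after UV in U373neo (horizontal axis) and U373cc3 (vertical axis) on the joint scale for the 8 measured genes (blue), 101 genes of the pathway lists (grey) and the 5 list genes whose UV change differed between the clones (yellow), with the line of equal change dashed. DVL2 lies at the upper right (0.84 and 0.65) and AXIN1 at the lower left (-0.73 and -0.90), near the line, while FZD1 and FZD5 lie well below it.

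The UV changes of the members were also set beside the lengths of their genes in RefSeq. The shortest, DVL2 at 9.2 kb, rose in both clones, and the 3 longest, AXIN1 at 65.3 kb, TNFRSF19 at 105.7 kb and NXN at 180.5 kb, were the only members at or below -0.67 in U373neo. In U373cc3 AXIN1 and TNFRSF19 were at -0.90 and -0.80, NXN, the longest, was at -0.07, and the others besides DVL2 lay between -0.02 and 0.27. The NXN probe was already dim in U373cc3 before UV, so a fall there could hardly be seen. Of lengths between the shortest and the 3 longest, DVL1 (14.1 kb), DVL3 (18.2 kb), CTNNB1 (40.9 kb) and CTNNBIP1 (62.0 kb) lay between -0.17 and 0.32 in U373neo. Over all genes the median UV change in U373neo was 0.30 for 3043 genes under 20 kb and -0.42 for 1325 genes of 100 kb or more, and in U373cc3 0.21 and -0.22. Genes from 60 to under 100 kb had medians of -0.34 and -0.23. The neighbours of AXIN1 on chromosome 16 moved the other way after UV, with medians of 0.60 in U373neo and 0.39 in U373cc3 and 18 of 27 higher in each clone. A part of gene length or of the chromosomal region in the UV changes of the members was not tested. The UV changes of NXN and TNFRSF19 themselves carry no test.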

How the data were processed

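Per the methods, the authors hybridized Cy5-labelled amplified RNA to Human OneArray chips, scanned them on a GenePix scanner, extracted the intensities from the images as the maker of the array directs, and quantile-normalized them in GeneSpring GX. The deposited values are linear intensities per probe and array. Why probes are blank is not given in the sources used here, and the distributions show that untreated and UV arrays were scaled apart. Gene symbols came from the platform annotation (9659 of 13041 probes had 1 symbol and 3382 none) and were brought up to date with the RefSeq genes of GRCh38.p14 (9615 matched), which also gave chromosomes, gene order and lengths.

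Each replicate entered as the mean of its 3 technical arrays on the log2 scale. A model of the 12 replicates was fitted with limma 3.58.1 in R 4.3.3 (lmFit, contrasts.fit, eBayes), and calls were made at 0.05 after Benjamini-Hochberg adjustment, which in each comparison covered every probe fitted. The clones were compared on deposited values (12300 probes without UV, 12343 after UV). UV changes and their difference used the 36 arrays normalized jointly by quantiles over 11602 probes with values under both treatments. Adjusted p-values in the text are those of limma. The fit was first tested on simulated data, where the share of false calls lay above the threshold in most comparisons.

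Members and lists were chosen with earlier results of these data known. No test is given for any member between the untreated clones, for NXN in any comparison, which for its UV changes and their difference is stricter than planned, or for the UV changes of TNFRSF19 and their difference. The UV tests of the other members also use the untreated cultures, whose values were known. Where a gene had several probes, the one with the highest mean stood for it. Named are all members, of each list the up to 2 largest rises and 2 largest falls past the threshold in a comparison, and the 5 probes most like NXN by Pearson r. The alternatives were other scalings, single arrays, the serial range of the arrays, a replicate block, leaving out each replicate, leaving out dim probes, and the methods' t-test. The number of arrays limits the precision.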

Additional observations from a re-analysis of the deposited data

Results flagged for a closer look

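Among the genes of the pathway lists, the UV change of 5 differed between the clones by the test of the difference itself. FZD5 (-0.73) and SRXN1, which encodes sulfiredoxin (-0.60, SE 0.10, adjusted p = 0.0117), passed under each of the 20 alternatives tried. FZD1 (-0.69) lost its call without U373cc3 replicate 2 or 3 and without U373neo UV replicate 2 or 3, with adjusted p-values up to 0.0656. FRAT2 (-0.50, SE 0.10, adjusted p = 0.0176) lost it without U373neo UV replicate 2 (adjusted p = 0.0531). DKK3 (0.49) lost it without any 1 of 7 replicates, with adjusted p-values up to 0.0879. On the joint scale SRXN1 read 6394 ± 390 without UV and 8383 ± 562 after UV in U373neo, and 7773 ± 402 and 6736 ± 151 in U373cc3, so that it lay higher in U373cc3 before UV and lower after it.

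Single arrays of the members were compared with the other arrays of their group. In 2 of 32 groups of 9 arrays 1 array lay apart by Dixon's criterion, which chance gives in about 1 of 20 groups. For CTNNBIP1 array 3 of U373cc3 UV replicate 2 read 242, below the others at 297 to 342. For DVL1 array 3 of U373neo UV replicate 2 read 1974, below the others at 2545 to 2965. The arrays of a replicate share their RNA.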

How the results depend on the processing

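NXN kept its direction between the clones and after UV in U373neo under every alternative, with a UV change in U373neo of -0.88 with values as deposited in place of -0.67. Its change after UV in U373cc3 turned to 0.13 with each array centred on its median and to 0.12 on range A arrays only. The difference of its UV changes was 0.77 with centring and 0.77 with values as deposited (the other scaling), and 0.75 on range A arrays only. DVL2 and AXIN1 after UV, CTNNBIP1 and TNFRSF19 between the clones after UV passed under every alternative. Of these, range A arrays only is no check over cultures, since U373cc3 after UV was replicate 3 alone there.

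Changes that did not pass also turned sign. The UV change of DVL1 in U373neo was -0.0198 with values as deposited. In U373cc3 that of DVL1 was 0.0753 with centring, 0.005 with serial range in the model, and -0.0622 to 0.0172 leaving out each replicate. DVL3 between the clones after UV was -0.0005 with centring and -0.044 to 0.0492 leaving out each replicate, and the difference of its UV changes -0.14 to 0.16. That of CTNNBIP1 was -0.17 to 0.10. CTNNB1 between the clones after UV was -0.0179 with serial range in the model, -0.064 on range A arrays only and -0.0463 to 0.055 leaving out each replicate, and its UV change in U373neo 0.18 with centring. Some UV changes passed only under an alternative. Those of CTNNBIP1 passed on single arrays (adjusted p = 0.00835 in U373neo and 0.025 in U373cc3) and with serial range in the model (0.00268 and 0.00513), that of CTNNB1 in U373neo on single arrays (0.0345), that of DVL1 in U373neo with centring (0.0339), and that of DVL3 in U373cc3 with serial range in the model (0.0305). With centring TXNL1 read 0.15 and PFKP 0.0893 after UV in U373neo. Centring moves the median UV change of all probes from 0.067 to 0.194 in U373neo and from 0.061 to 0.198 in U373cc3.

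The count of probes whose UV change differed between the clones, 716, was 1404 on single arrays, 1803 with serial range in the model and 230 to 977 leaving out each replicate (230 without U373neo UV replicate 2). Of the pathway genes 5 became 11, 16, 8 on range A arrays only, and 2 to 9. With the methods' t-test after Benjamini-Hochberg 3050 probes and 22 pathway genes passed between the untreated clones, in place of 4698 and 42. At the methods' unadjusted threshold 4935 probes passed.

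Whether replicate numbers pair the cultures was not settled. Correlations of same-numbered replicates lay between -0.34 and 0.37, and differently numbered ones were not set beside them. The fit reported did not pair them. With the number as a replicate block 448 probes passed in the difference of the UV changes, DVL1 between the clones after UV reached an adjusted p of 0.0472 and CTNNBIP1 after UV in U373neo 0.0436.

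Of the list genes selected in a comparison, 22 of 27 between the untreated clones, 16 of 23 after UV, 25 of 27 for UV in U373neo and 21 of 26 for UV in U373cc3 passed without each replicate in turn, and those lost are given beside the genes. Under every alternative 18, 14, 19 and 15 passed. The methods' t-test after Benjamini-Hochberg lost 25 of these calls, among them PORCN, FZD7, CSNK1D and APC2 between the untreated clones and APC after UV. The other scaling lost 13 calls, among them RSPO2, BAMBI and PFKL for UV in U373cc3 and RNF146, SKP1 and PFKP for UV in U373neo. Range A arrays only also lost calls, among them BAMBI, CELSR2, GLRX and PFKL for UV in U373cc3, where only UV replicate 3 was left. The replicate block lost 3 (WNT10B after UV, DKK3 in the difference and TXNL4B between the untreated clones).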
